A study of Mus musculus with 6 samples.

Results

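Xirp1 and Xirp2 are the mouse genes for the Xin actin-binding repeat proteins, and they were taken by symbol from a table of read counts: 2 genes of 43346. They were selected on their counts in this comparison, because both were near the detection floor in the control libraries and present in the erastin libraries, so their difference between the groups is given as a description, without a test. Primary embryonic fibroblasts of C57BL/6 mice (MEFs), cultured to passage 9, were the source of all libraries. The cells were exposed for 24 h to 3 µM erastin (3 libraries) or to the solvent DMSO (3 libraries). Erastin inhibits cystine import by the cystine/glutamate antiporter and serves to induce ferroptosis, an iron-dependent cell death. No genotype or transgene is named for either group. The design text states that the experiment was done in triplicate, but the sources used here do not say whether replicates came from separate embryos, so p-values measure the spread between these libraries. Ribosomal RNA was depleted from total RNA, and the libraries were sequenced on an Ion Proton instrument.

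Xin proteins are named for a short repeat that binds and stabilises actin filaments. In striated muscle they sit at the intercalated discs of the heart and at the myotendinous junctions of skeletal muscle, where force passes from the sarcomere to the membrane. Xirp1 (Xin) binds filamin C, proteins of the Ena/VASP family and catenins, and it accumulates at damaged sites in muscle fibres. Xirp2 (also called myomaxin) binds alpha-actinin, and its gene is a known target of the transcription factor MEF2A. Neither protein is a usual marker of fibroblasts.

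Xirp1 (ENSMUSG00000079243.2 in the table) lies on the minus strand of chromosome 9 at 120013755 to 120023598 (GRCm38, the same assembly as mm10). Its longest transcript in GENCODE M21 has 3 exons, and its exons cover 5839 bases. Xirp2 (ENSMUSG00000027022.9) lies on the plus strand of chromosome 2 at 67446002 to 67526614. Its longest transcript has 9 exons, and its exons cover 11979 bases. The counts are per gene, so they cannot be assigned to single exons or untranslated regions.

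The RefSeq promoter table held an entry for 1 of the 2 genes, Xirp2. Its upstream sequence is shown because MEF2A is a known regulator of the gene and Mef2a itself was among the genes measured. The stretch is chr2:67445752-67446001 on the plus strand (GRCm38.p6), the 250 bases before the annotated start, 5′ to 3′. Capitals mark the matches to an AP-1 motif and, nearer the start, to a MEF2 motif.

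Xirp2 upstream: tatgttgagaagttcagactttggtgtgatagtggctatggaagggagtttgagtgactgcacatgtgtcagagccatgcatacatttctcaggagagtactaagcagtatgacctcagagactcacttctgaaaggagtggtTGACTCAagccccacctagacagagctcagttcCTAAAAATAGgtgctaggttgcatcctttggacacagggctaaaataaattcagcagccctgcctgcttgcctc

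The MEF2 motif was searched on both strands as CTA, 4 free bases and TAG, and its match, CTAAAAATAG, begins 74 bases before the start. Of 32851 promoter windows of the same length, 3.2% held this motif. The AP-1 motif was searched as TGANTCA, and its match, TGACTCA, begins 107 bases before the start; 6.75% of windows held it. The E-box, CANNTG, matched at 2 overlapping places beginning 190 and 188 bases before the start, and 66.2% of windows held one. The MEF2 and AP-1 matches do not overlap each other or the E-boxes. The other 6 patterns had no match in this window: the C/EBP-ATF element TGATGNAA, the antioxidant response element TGACNNNGC, the cyclic AMP response element TGACGTCA, the TEAD motif GGAATG, the heat shock element GAANNTTC and the TATA box TATAAA. They were found in 3.45%, 10.2%, 1.55%, 12.6%, 6.69% and 12.4% of windows, respectively. A match describes letters only, and binding was not measured. A part of MEF2A or AP-1 in the rise of Xirp2 was not tested.

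Total counts per library ran from 13333911 to 20509970, and 14000 genes had enough reads to be tested. A level of 3 reads, taken as the floor, was worth 0.139 to 0.233 CPM (counts scaled to a common library size with TMM factors for library composition). Chi-square per degree of freedom between libraries was 11.0 to 19.2 within groups and 78.0 to 123 between groups, so no 2 libraries agreed within sampling noise. All 11 fibroblast markers were expressed at tested levels, with a summed level of 28864 to 30018 CPM in DMSO and 16995 to 18953 CPM in erastin libraries. Of these markers 9 fell (edgeR adjusted p under 0.05), while Dcn and Fap did not pass; of all genes tested 21.5% fell. In bulk RNA, a change in the number of cells of a type and a change of RNA per cell cannot be told apart.

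Xirp2 had 1, 0 and 0 reads in DMSO replicates 1, 2 and 3, and 180, 140 and 86 reads in erastin replicates 1, 2 and 3. As CPM these were 0.0755, 0 and 0 against 8.37, 8.37 and 4.45, with means of 0.0252 ± 0.0436 and 7.06 ± 2.26 (SD, n = 3 each). The groups did not overlap, and every DMSO value lay under the floor of its own library. The pooled reads, 406 against 1, gave a ratio of 312, with an exact 95% interval of 55.6 to 12342. This interval covers counting error only, and PCR-amplified reads without molecular identifiers are not independent molecules.

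Xirp1 had 0, 3 and 0 reads in DMSO replicates 1, 2 and 3, and 47, 30 and 21 reads in erastin replicates 1, 2 and 3. As CPM these were 0, 0.166 and 0 against 2.19, 1.79 and 1.09, with means of 0.0554 ± 0.0959 and 1.69 ± 0.556 (SD, n = 3 each). The groups did not overlap here either, and all 3 DMSO reads came from replicate 2. The pooled reads, 98 against 3, gave a ratio of 25.1 with an exact 95% interval of 8.33 to 124. Over all genes tested, the groups did not overlap with erastin higher in 26.7% and lower in 25.8%; both members were picked for this pattern, so nothing is read from their count. Both passed the filter on low counts only through the erastin libraries.

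**Figure D1:**
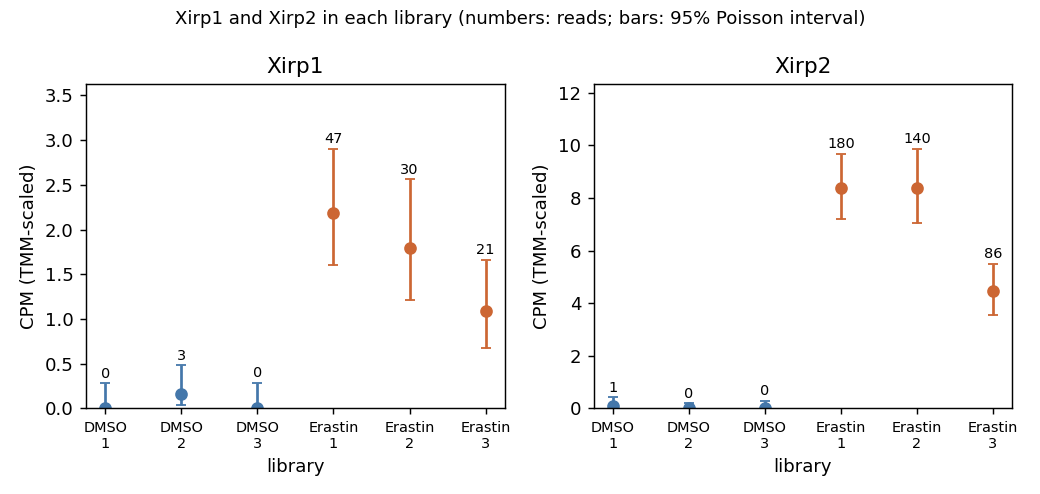
Level of Xirp1 (left) and Xirp2 (right) in each library, in CPM scaled by TMM factors, with the exact 95% Poisson interval of the count as bars and the number of reads above each point. The 3 erastin libraries lie above the 3 DMSO libraries for both genes, with 21 to 47 reads of Xirp1 and 86 to 180 reads of Xirp2.

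Within the erastin group replicate 3 was the lowest for both genes. For Xirp2 its 95% Poisson interval, 3.56 to 5.50 CPM, did not overlap those of replicate 1 (7.19 to 9.68) and replicate 2 (7.04 to 9.88). For Xirp1 the interval of replicate 3, 0.673 to 1.66 CPM, overlapped those of replicate 1 (1.61 to 2.91) and replicate 2 (1.21 to 2.56). These intervals hold counting error alone, and libraries within a group differed by more than that over all genes.

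Xirp2 took most of the reads of the 2 genes in each erastin library. Xirp1 made up 20.7%, 17.6% and 19.6% of their joint reads in replicates 1, 2 and 3, with exact 95% binomial intervals of 15.6 to 26.6%, 12.2 to 24.2% and 12.6 to 28.4%. These intervals cover counting error only and overlap, and they are too wide to show whether the proportion differed. Per kilobase of exon, the level of Xirp2 was 0.590 ± 0.189 CPM and that of Xirp1 0.289 ± 0.0953 CPM with erastin (SD, n = 3 each). Xirp2 was higher than Xirp1 on this scale in each erastin library, at 0.699 against 0.374, 0.699 against 0.307 and 0.372 against 0.186 CPM per kilobase.

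Adhesion and actin partners of Xin moved in different directions. The list held 20 genes for filamins, nebulin-type proteins, vinculin, catenins, cadherin and Ena/VASP proteins, of which 19 were tested. With erastin 3 rose, 9 fell and 7 did not pass (edgeR quasi-likelihood test, adjusted p under 0.05 over 14000 genes), 63.2% called against 43.1% of all genes tested. The median log2 fold change was -0.16, against -0.0014 over all genes.

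Flnc (ENSMUSG00000068699.8), for the filamin C that binds Xin and crosslinks actin, had the largest rise of the list. It stood at 791, 802 and 922 CPM in the DMSO libraries and at 3135, 3262 and 2696 CPM in the erastin libraries, in the order of replicates 1 to 3. All erastin libraries lay above all DMSO libraries, and replicate 3 was the lowest of its group (log2 change 1.85 with SE 0.08; adjusted p = 1.04e-09 in edgeR). Flnc was well above the floor in DMSO, where Xirp1 and Xirp2 were not. Enah, for the Ena/VASP protein Mena, rose from 99.0 ± 4.37 to 204 ± 16.8 CPM (n = 3, SD; log2 change 1.04 with SE 0.08; adjusted p = 1.67e-07 in edgeR). The rise of the gap junction gene Gja1, named after its value was seen, was smaller, with a log2 change of 0.41 (adjusted p = 0.00046 in edgeR).

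Among the partners that fell, Vcl, for vinculin, which links cadherin and integrin contacts to actin, went from 827 ± 42.3 to 402 ± 4.37 CPM (n = 3, SD; log2 change -1.04 with SE 0.07; adjusted p = 2.17e-08 in edgeR). Pgm5, for aciculin, a filamin C and Xin partner, went from 37.2 ± 1.65 to 13.2 ± 1.96 CPM (n = 3, SD; log2 change -1.50 with SE 0.14; adjusted p = 6.86e-07 in edgeR). Both genes were lower in every erastin library than in any DMSO library. The others that fell included the catenin genes Ctnnd1 and Jup, with log2 fold changes of -0.98 and -0.89, while Ctnnb1 (-0.16) did not pass; these 3 were named after their values were seen. Actn2, for the alpha-actinin of striated muscle, was not tested, with 0 to 6 reads in any library.

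**Figure D2:**
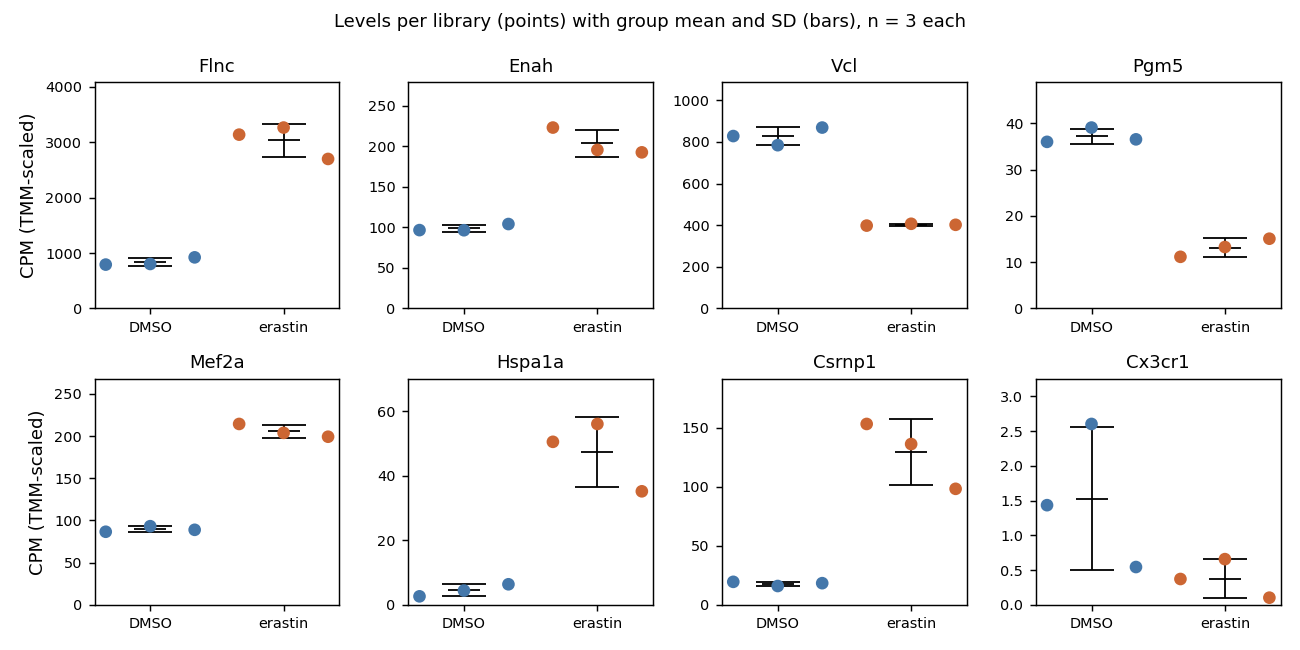
Level in CPM (TMM-scaled) of 8 genes in the 3 DMSO and 3 erastin libraries (points, replicates 1 to 3 from left to right), with the group mean and SD as bars. Flnc, Enah, Mef2a, Hspa1a and Csrnp1 lie higher in all erastin libraries, Vcl and Pgm5 lower, and the groups of Cx3cr1 overlap.

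Genes for filamins and for the chaperones that handle damaged filamin rose for the most part. In muscle, BAG3 with the chaperones HSPB8 and HSPA8 and the receptor SQSTM1 directs unfolded filamin to autophagy, a route called chaperone-assisted selective autophagy. All 16 genes of this list were tested: 11 rose, 4 fell and 1 did not pass, 93.8% called against 43.1% of all genes, with a median log2 fold change of 0.73. Hspa1a, for an inducible HSP70, rose from 4.48 ± 1.87 to 47.2 ± 10.8 CPM (n = 3, SD; log2 change 3.40 with SE 0.24; adjusted p = 6.33e-08 in edgeR). Hspa1a has a near-identical copy, Hspa1b, so the division of reads between them is uncertain. Sqstm1 rose from 557 ± 22.8 to 2383 ± 143 CPM and Hspa8 from 544 ± 31.4 to 981 ± 15.0 CPM (n = 3 each, SD; adjusted p = 9.24e-11 and 1.62e-07 in edgeR).

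Small heat shock protein genes and the co-chaperone Bag3 were named after their values were seen. Hspb7, Cryab, Hspb8 and Bag3 rose, with log2 changes of 1.61, 1.15, 1.01 and 0.36 and adjusted p-values in edgeR of 8.47e-05, 3.89e-07, 4.7e-07 and 0.0172. Hspb6 fell, with a log2 change of -1.01. Synpo2 (-1.40), for a partner of BAG3, Stub1 (-0.48), for a ubiquitin ligase, and Flna (-0.36), for the most widely expressed filamin, fell too. The list therefore held members in both directions, and Flnc rose while Flna fell.

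Muscle transcription regulators gave a divided picture in which 2 MEF2 genes rose. Of 24 listed genes 17 were tested, of which 3 rose, 7 fell and 7 did not pass (58.8% called, against 43.1% of all genes; median log2 fold change -0.25). Over all genes tested, 21.6% rose and 21.5% fell. Mef2a (ENSMUSG00000030557.12), for the factor known to act on Xirp2, stood at 86.6, 93.2 and 88.9 CPM in DMSO and at 214, 204 and 199 CPM in erastin libraries. The groups did not overlap, and the libraries within a group were close together (log2 change 1.20 with SE 0.08; adjusted p = 1.94e-08 in edgeR). Mef2d rose from 75.9 ± 5.92 to 121 ± 2.37 CPM (n = 3, SD; log2 change 0.67 with SE 0.08; adjusted p = 1.51e-05 in edgeR). Mef2c, at 8.39 CPM in DMSO and 5.45 CPM with erastin, did not pass (adjusted p = 0.0515 in edgeR).

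Srf, for the serum response factor that drives contractile genes, fell from 94.8 ± 7.06 to 61.3 ± 2.84 CPM, and Tead2, for a partner of YAP, from 62.5 ± 4.41 to 40.4 ± 3.21 CPM (n = 3 each, SD; adjusted p = 4.77e-05 and 0.000134 in edgeR). Of the other TEAD genes, named after their values were seen, Tead1 and Tead3 fell and Tead4 rose. The skeletal muscle determination factors were near the floor in both groups. Myod1 had the highest summed count of the untested genes, with 0 to 9 reads in a library. Myf5 had 0 to 1, Myog 0 to 4 and Myf6 0 to 1, and Myog was listed at 0 in all 3 erastin libraries.

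Stress genes of striated muscle were mostly too low to test. Of 15 listed, 6 were tested, with 2 higher, 3 lower and 1 that did not pass (83.3% called, against 43.1% of all genes), and a median log2 fold change of -0.21. Ankrd1, for an ankyrin repeat protein that binds titin and answers to mechanical stress, rose from 67.3 ± 0.955 to 163 ± 16.0 CPM (n = 3, SD; log2 change 1.28 with SE 0.09; adjusted p = 4.22e-08 in edgeR). Nppb, for the natriuretic peptide B used as a marker of heart strain, rose from 1.66 ± 0.703 to 6.07 ± 1.53 CPM (log2 change 1.85 with SE 0.38; adjusted p = 0.00122 in edgeR). Lmcd1 and Fhl2, for LIM domain proteins of muscle, had log2 changes of -1.98 and -0.59 and fell (adjusted p = 4.93e-05 and 0.000736 in edgeR). Trim63, the untested gene with the most reads, had 0 to 11 in a library.

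Sarcomere genes were mostly too low to test. Of 39 listed, 11 were tested, of which 1 rose, 1 fell and 9 did not pass. That is 18.2% called, against 43.1% of all genes. The 9 that did not pass had group means of at most 2.07 CPM and SE of 0.50 to 1.22 for their log2 changes. With errors this large the low share called does not show that these genes were unchanged. Des, for the intermediate filament desmin, rose from 40.5 ± 4.96 to 66.6 ± 1.94 CPM (n = 3, SD; adjusted p = 5.37e-05 in edgeR). Acta1, for skeletal muscle actin, fell from 56.0 ± 5.42 to 18.8 ± 2.83 CPM (n = 3, SD; adjusted p = 1.92e-07 in edgeR). Tnnt2 and Tnni1, for subunits of troponin, overlapped between groups, with log2 fold changes of -1.65 and -1.11 that did not pass (adjusted p = 0.0848 and 0.324 in edgeR). The 28 untested genes had at most 25 reads in any library, a count reached by Actc1, for cardiac actin, in DMSO replicate 3. The number of genes that fell was 3 without erastin replicate 1.

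**Figure D3:**
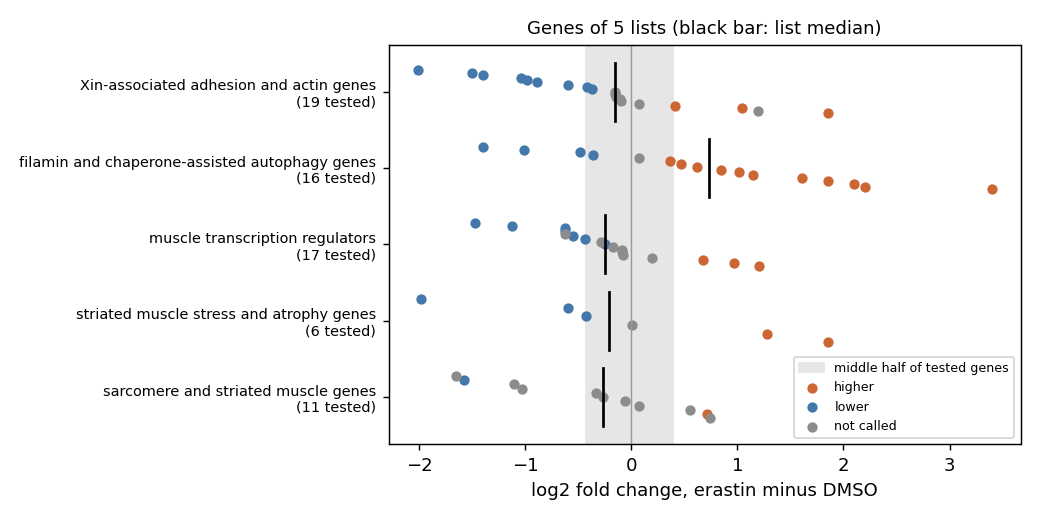
Log2 fold change of each tested gene of 5 lists, erastin minus DMSO, coloured by its call at an edgeR adjusted p-value under 0.05, with the list median as a black bar and the middle of the distribution of all tested genes shaded. The filamin and chaperone list has its median at 0.73, the other lists between -0.27 and -0.16.

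Markers of other cell types were set beside the members' rise. The summed level of 8 skeletal myoblast and myotube markers was 53.6 to 64.1 CPM in DMSO and 20.2 to 23.6 CPM in erastin libraries, most of it Acta1. That of 8 cardiomyocyte markers was 2.72 to 6.69 and 1.29 to 2.32 CPM, and that of 5 smooth muscle markers 5496 to 5979 and 3300 to 3648 CPM. The summed levels of the skeletal, cardiac and smooth muscle markers were thus lower in every erastin library than in any DMSO library. Of the 8 skeletal markers 2 were tested, and Acta1 alone was called. Of the 8 cardiomyocyte markers 1 was tested and 0 were called, so their sum rests on genes with few reads. A part of muscle cells in the rise of Xirp1 and Xirp2 was not tested. None of the listed markers was at 0 in all 6 libraries. Nkx2-5, Myf5 and Ckm had at most 3 reads in a library, but other skeletal and cardiac markers had more. Pax7, not tested, had 2, 3 and 0 reads in DMSO and 4, 11 and 4 reads in erastin libraries. Myog went the other way, with 0, 4 and 3 against 0, 0 and 0 reads. Myod1 had 0 to 9 reads in a library, Cdh15 0 to 24, Chrna1 9 to 50 and Tnnt2 2 to 40. Endothelial markers summed to 2.21 to 4.75 and 7.65 to 10.0 CPM, through Kdr, which rose with a log2 change of 1.38 (adjusted p = 0.00172 in edgeR). Their part in the members' rise was not tested. Epithelial and immune markers summed to 2.18 to 3.24 and 10.8 to 14.7 CPM in DMSO, and to 2.14 to 3.17 and 9.22 to 16.9 CPM in erastin libraries, and these ranges overlapped.

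Genes next to the members were examined because overlapping transcription could place reads on a neighbour. Xirp1 lies within the annotated span of Cx3cr1, a chemokine receptor gene on the same strand, but shares 0 exon bases with it. Cx3cr1 had 19, 47 and 7 reads in DMSO and 8, 11 and 2 reads in erastin libraries, the opposite direction to Xirp1. It passed as lower (log2 change -2.03 with SE 0.76; adjusted p = 0.0403 in edgeR), but the groups overlapped in CPM. It no longer passed without DMSO replicate 1, DMSO replicate 2, erastin replicate 1 or erastin replicate 3 (adjusted p = 0.085, 0.263, 0.124 and 0.131 in edgeR).

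Csrnp1, for a nuclear protein with a cysteine- and serine-rich region, lies on the minus strand 29.1 kb beyond the end of Xirp1, at 119971163 to 119984658 of chromosome 9. It stood at 19.5, 15.9 and 18.3 CPM in DMSO and at 153, 136 and 98.1 CPM in erastin libraries (log2 change 2.85 with SE 0.14; adjusted p = 2.62e-09 in edgeR). Replicate 3 was the lowest erastin library for this gene. Not all genes that rose had this order: Hspa8 and Fgf16 were lowest in erastin replicate 1 and Gja1 in replicate 2. The share of all genes with replicate 3 lowest was not counted, so nothing is read from it. Ccr8, on the other side, was listed at 0 in all libraries. Gm49427, Gm47043, Gm33858 and Gm47050, also near Xirp1, were not among the identifiers counted, so no level is given for them.

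Few reads were counted around Xirp2. The antisense gene Gm13601 shares 168 exon bases with Xirp2 and was listed at 0 in all 6 libraries; whether counting used the strand is not given in the sources used here. Gm26727, Gm23328 and Mir7224 were also at 0, and Gm21830 and Gm26743 had 1 read each. B3galt1, for a galactosyltransferase, begins 39.3 kb beyond the end of Xirp2 on the same strand. It had 103, 108 and 55 reads in DMSO and 66, 71 and 85 in erastin libraries and did not pass (log2 change -0.62 with SE 0.31; adjusted p = 0.117 in edgeR). Without DMSO replicate 3 it passed as lower (log2 change -0.82; adjusted p = 0.0421 in edgeR).

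Likeness of pattern was measured as the root mean square difference of log2 CPM over the 6 libraries, after each gene was centred on its own mean, so that a small value means a similar profile. The treatment sets most of this profile, so likeness is a description. The 5 genes closest to Xirp1 were Lce1h (0.26), Lonrf3 (0.35), Ngef (0.35), Atp7b (0.45) and Sema7a (0.45). They are, in order, a late cornified envelope gene of the epidermis, a gene for a RING finger protein, one for a guanine nucleotide exchange factor, one for a copper pump and one for a membrane semaphorin. Ngef, picked for this likeness, had 11.1 and 9.98 CPM in erastin replicates 1 and 2 and 5.39 CPM in replicate 3.

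The 5 genes closest to Xirp2 were Lce1g (0.45), Crct1 (0.45), Atf3 (0.66), Gdf15 (0.68) and Fgf16 (0.77). Lce1g and Crct1 belong to the epidermal cornified envelope, Atf3 is a stress transcription factor, Gdf15 a stress-induced cytokine and Fgf16 a fibroblast growth factor. Lce1g had 8.83, 7.11 and 4.14 CPM and Crct1 91.4, 96.3 and 52.0 CPM in erastin replicates 1, 2 and 3. They were picked for their likeness over these libraries, so the low value of replicate 3 that they share with Xirp2 follows from the choice. Of the 6 keratinocyte or epithelial markers, Krt5 and Krt14 had 0 to 1 and 0 to 3 reads in a library. Krt8 had 0 to 7, Cdh1 0 to 10, Epcam 1 to 14 and Krt18 16 to 41 reads. A part of epithelial cells in these levels was not tested. The 5 closest genes of Xirp1 and those of Xirp2 were all different, and Xirp1 and Xirp2 differed from each other by 1.23. This measure takes in the size of a rise and stray DMSO reads, 0, 3 and 0 for Xirp1 and 0, 4 and 0 for Lce1h. Whether the members are regulated apart was not tested.

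**Figure D4:**
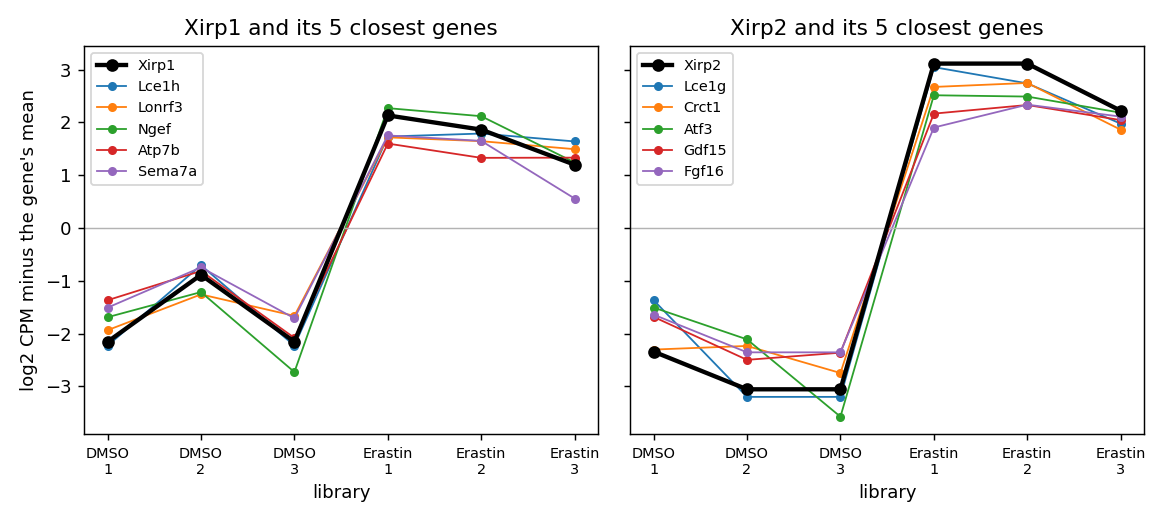
Log2 CPM of Xirp1 (left), Xirp2 (right) and the 5 genes closest to each, minus each gene's mean over the 6 libraries; lines join the points of a gene and carry no order of replicates. The root mean square differences from the member run from 0.26 to 0.45 on the left and from 0.45 to 0.77 on the right.

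A start from the floor was rare among the genes tested. At most 3 reads in every DMSO library and at least 10 in every erastin library were found for 17 genes (0.121% of 14000), both members included by their choice. The opposite pattern, at least 10 reads in every DMSO and at most 3 in every erastin library, was found for 7 genes (0.05%). The 8 of the 17 with the highest mean CPM with erastin were Xirp2, Kprp, Fgf16, Kctd4, Xirp1, 1700012B09Rik, Lce1l and Serpinb1b. Xirp2 came first at 7.06 CPM, followed by Kprp, a keratinocyte gene, at 2.86 CPM and Fgf16 at 2.52 CPM. Xirp2 was chosen for its rise from the floor, so nothing is read from its rank. All 17 genes passed the filter on low counts only through the erastin libraries.

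Kctd4, 1700012B09Rik, Lce1l and Serpinb1b, the last of them a protease inhibitor gene, were listed at 0 in all DMSO libraries. They had 27, 49 and 20, 27, 32 and 29, 42, 22 and 21, and 20, 35 and 16 reads in the erastin libraries. Kprp had 0, 3 and 0 reads in DMSO and 62, 79 and 19 reads with erastin. Late cornified envelope genes form a family of close copies, so the reads of single members are uncertain. CPM is not scaled for gene length, and the order of these genes would differ per kilobase.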

How the data were processed

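The authors deposited whole-number read counts per gene for 6 libraries. Per the submitters' processing notes, mm10, HTSeq 0.9.1 and SAMtools were used; the aligner, annotation and strand setting are not given in the sources used here. Columns were matched to libraries by the sample numbers in the labels, with 0 unused. Of 43346 identifiers, 42462 (98%) had a GENCODE M21 symbol. The default settings of filterByExpr (count of 10 in 3 libraries, total of 15) selected the genes tested. edgeR 4.0.16 in R 4.3.3 compared erastin with DMSO by the quasi-likelihood test with TMM factors and a single term for treatment. P-values were adjusted by Benjamini-Hochberg across 14000 genes, called under 0.05, and the procedure was tested on simulated data. CPM are counts over total counts times TMM factors. Intervals and the floor of 3 counts cover counting error only.

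Members, lists, motifs and tests were chosen with earlier results of these data known. Named genes were the members, the 4 smallest p-values and the most counted untested gene of each list, the neighbours, the 5 closest patterns (prior count 2) and 8 genes starting from the floor; the values of 1 listed gene are not reported here. Alternatives were RLE, upper-quartile and total-count scaling, no filter, 1 CPM in 3 libraries, the replicate block, DESeq2 1.42.0, leaving out each library, and, for the members' levels, thinning to the smallest library.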

Additional observations from a re-analysis of the deposited data

How the results depend on the processing

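The mean level of Xirp2 with erastin was 6.93 to 7.43 CPM and that of Xirp1 1.66 to 1.73 CPM under the other scalings and after thinning, and 6.35 to 8.34 and 1.43 to 1.98 CPM when 1 library was left out. In DMSO the means were at most 0.038 CPM for Xirp2 and 0.0838 CPM for Xirp1 when 1 library was left out, and 0 for each without the 1 library that held its reads. After thinning, Xirp1 had 15 to 29 and Xirp2 68 to 121 reads in the erastin libraries, and the DMSO reads were as before. The number of genes called was 5882 to 6104 under alternatives that used all libraries and 4802 to 5809 when 1 was left out. The replicate block gave 5882, of which 5751 were called without it. Deviations of equally numbered libraries correlated by 0.0128 on average (-0.0055 to 0.0401), against -0.00628 for other pairs. These correlations cannot exclude pairing, because they include counting noise and rest on 3 libraries per group. Whether equally numbered libraries shared a preparation was not established. The count of sarcomere genes that fell was 2 without a filter and 1 to 3 when 1 library was left out. The count of neighbouring genes called, reported as 2, was 1 with the filter of 1 CPM in 3 libraries, which left fewer genes to test, and 1 to 3 when 1 library was left out. The other counts of the 5 lists stayed within 1.5 times their values. Of the log2 fold changes of 37 named genes, 471 kept their direction and side of the threshold under an alternative, 4 no longer passed (Cx3cr1) and 2 newly passed (B3galt1 and Tnnt2); where no construction of the alternative shows the cause, the cause was not tested. Depth limits Xirp1 and the genes at the floor most.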
